A study of Rattus norvegicus with 12 samples.

Results

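The corn oil controls of a rat kidney study were compared between 2 experiments that differed in the anaesthesia given before death. The arrays were chosen by their titles: 3 vehicle control arrays with isoflurane and 3 vehicle control arrays with CO2-O2, which is 6 of the 12 arrays of the series. The study measured RNA of the renal cortex with single-colour oligonucleotide microarrays and set bromodichloromethane (BDCM, a disinfection by-product of chlorinated water) against corn oil in each experiment, with 3 animals per group. All rats were male Sprague-Dawley, an outbred stock, and were bought at 5 weeks of age. The CO2-O2 controls (experiment B92) received corn oil for 4 weeks and were bled under CO2 and oxygen mixed 4 to 1. The isoflurane controls (experiment B103) received corn oil for the same 4 weeks and were bled under inhaled isoflurane. The BDCM groups received 200 mg/kg per day of the compound for 4 weeks, 1 group in each experiment. All animals died 24 hours after the final dose.

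The renal cortex holds glomeruli, where blood is filtered, and a large mass of proximal tubules, which take back most of the filtered salt, glucose and phosphate. Both ways of inducing unconsciousness act on the whole animal within minutes: inhaled CO2 acidifies the blood, and isoflurane is a volatile anaesthetic that lowers blood pressure. Immediate early genes are known for induction on that time scale. Anaesthesia, experiment, slide and scan day change together between these 2 groups, so their contributions cannot be told apart.

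Levels are given as the log2 processed signal of a probe relative to the 75th percentile of its array, so that 0 is a bright probe and values near -8 are at background. The 75th percentile of the processed signal was between 1079.5 and 1328.3 on the 6 arrays, and between 42101 and 44682 probes per array were well above background by the scanner software's test. The tissue label was borne out by defining kidney transcripts: uromodulin (Umod) was between 8.56 and 8.84 and the proximal tubule phosphate carrier Slc34a1 between 7.85 and 8.49 on every control array. The CO2-O2 control arrays all lay on slide 1, and the isoflurane control arrays on slides 3 and 4. No slide and no scan day held arrays of both experiments. The array of CO2-O2 control 1 had a dark area of 212 probes, where 21 were more than 3 log2 units below all other arrays and none of them was marked as an outlier. Leaving these spots out changed the counts of genes past the threshold by 1 in each direction.

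Animals of a group were alike, and the groups were further apart than the animals within them. The median absolute difference between arrays over all features was 0.123 to 0.134 among the CO2-O2 controls and 0.141 to 0.149 among the isoflurane controls, on the log2 scale. Between a CO2-O2 and an isoflurane control it was 0.202 to 0.242 in all 9 pairs. A test in limma over 34218 features, with Benjamini-Hochberg adjustment and a threshold of adjusted p 0.05, called 3795 features (11.1%). Among 12208 features with a gene symbol, 559 genes (4.58%) were higher and 503 genes (4.12%) were lower in the isoflurane controls. The isoflurane arrays lay entirely above the CO2-O2 arrays in 19.3% of named genes and entirely below in 19.0%. Most differences were small: the median was 1.51-fold among the higher genes and 1.36-fold among the lower genes, and 71 genes were more than 2-fold higher and 43 more than 2-fold lower.

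The balance of higher and lower genes depended on the scaling. The median difference over all features was 0.05 with the 75th percentile and -0.07 with centring on the median, which gave 338 higher and 1102 lower genes. Quantile normalization gave 452 and 621. Leaving out any 1 of the 6 animals left 241 to 383 higher and 173 to 280 lower genes, and 32 of the 77 genes past the threshold that are named by rule here passed it in all 6 of these fits. The higher calls leaned towards weak signals: among the 2442 genes with the lowest level, 157 were higher and 53 lower, whereas among the 2442 brightest 58 were higher and 71 lower.

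**Figure D1:**
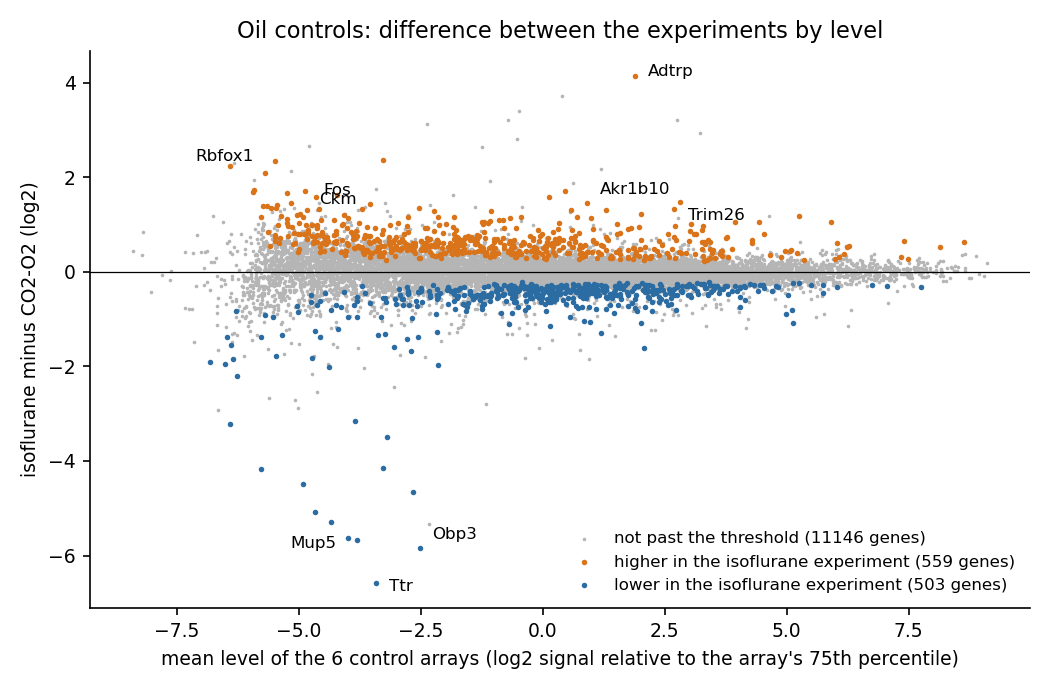
Each point is a named gene; the horizontal axis gives its mean log2 level over the 6 control arrays and the vertical axis the isoflurane minus CO2-O2 difference (log2). Orange and blue points are the 559 higher and 503 lower genes past adjusted p 0.05, and the points at the bottom are liver-type transcripts such as Ttr and Obp3.

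Different probes of a gene often gave different answers. Of the 1062 genes called, 561 had another probe well above background on all arrays of a control group. All other probes pointed the same way in 341 of these genes (60.8%), and at least 1 of them had an adjusted p under 0.05 in the same direction in 89 (15.9%). Per probe, 30.7% of the other probes of called genes had an unadjusted p under 0.05 in the gene's direction, against 14.1% for other probes of genes that were tested and not called. Differences of other probes are therefore given with most of the called genes below. Some of these probes were well above background on only part of the control arrays.

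The largest differences between the groups were downward, and most of them were in genes known for products of the liver. Transthyretin (Ttr), the thyroid hormone and retinol carrier, had levels of 0.29, 1.17 and -1.83 in CO2-O2 controls 1 to 3 and of -8.0, -8.01 and -4.06 in isoflurane controls 1 to 3. The groups did not overlap, CO2-O2 control 3 was the lowest of its group, and isoflurane controls 1 and 2 were at background. The difference was -6.57 ± 1.68 (log2, SE, n = 3 per group; adjusted p = 0.0337 in limma). That is 94.9-fold as measured and 33.7-fold with the dim arrays raised to the lowest signal well above background, since 1 of 3 isoflurane arrays measured it. Its other probe gave -3.74.

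The major urinary proteins are small lipocalins that bind pheromones and are made in the male rat liver under growth hormone and androgen control. All 7 measured genes of this family were lower in the isoflurane controls, and 6 of them are described here (Mup4, Mup5, Mup4l1, Mup4l3, Mup4l4 and Obp3). Of all named genes, 4.12% were lower. Of the 7 urinary protein genes, 0 were well above background on all 6 control arrays. Such genes pass the filter through a group where they are high, so this count is partly set by the filter. These 6 genes lie together on chromosome 5 (GRCr8) and are near copies of each other, so which copy a probe reports is uncertain. The promoter windows below, from RefSeq on GRCr8, show how alike they are; each holds 60 bases before the motif TATAAA, the motif in capitals and 20 bases after it, 5′ to 3′ on the gene's strand.

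Mup4: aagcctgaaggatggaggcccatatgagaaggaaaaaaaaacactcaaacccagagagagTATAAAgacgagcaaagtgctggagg

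Mup5: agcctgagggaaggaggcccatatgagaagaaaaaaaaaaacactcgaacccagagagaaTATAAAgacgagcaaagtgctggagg

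Mup4l1: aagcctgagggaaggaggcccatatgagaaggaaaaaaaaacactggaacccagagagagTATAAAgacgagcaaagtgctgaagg

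Mup4l3: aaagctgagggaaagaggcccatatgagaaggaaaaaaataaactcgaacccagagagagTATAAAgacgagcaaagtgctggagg

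Mup4l4: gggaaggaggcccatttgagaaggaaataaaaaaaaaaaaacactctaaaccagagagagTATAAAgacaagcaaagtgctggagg

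Obp3: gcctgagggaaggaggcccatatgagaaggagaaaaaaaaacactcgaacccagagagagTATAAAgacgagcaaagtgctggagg

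Their positions are chr5:79759523-79759608 for Mup4, chr5:79999722-79999807 for Mup5, chr5:80226536-80226621 for Mup4l1, chr5:80318380-80318465 for Mup4l3, chr5:79707834-79707919 for Mup4l4 and chr5:79640683-79640768 for Obp3, all on the minus strand. Set side by side without gaps, pairs of windows shared 68.6% to 94.2% of their bases over 15 pairs. TATAAA on the gene's strand was found in 9.08% of the 27457 promoters of 300 bases in the same table.

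Mup4l4 was at 0.07, 0.62 and -1.72 in the CO2-O2 controls and at -5.55, -5.63 and -3.80 in the isoflurane controls, with a difference of -4.65 ± 0.68 (SE, n = 3 per group; adjusted p = 0.00354 in limma) and -5.28 from its other measured probe. Mup5 was at -0.53, 0.12 and -2.52 against -7.64, -7.69 and -4.62, a difference of -5.67 ± 1.09 (adjusted p = 0.0108, other probe -4.25). Obp3 was at 0.77, 1.52 and -1.10 against -7.32, -5.94 and -3.05, a difference of -5.83 ± 1.30 (adjusted p = 0.0196). The other probe of Obp3, well above background on 1 of 6 control arrays, gave -1.82. Mup4l4, Mup5 and Obp3 were each well above background on 1 of 3 isoflurane arrays. Raising the dim arrays took Mup5 from 50.8-fold to 21.1-fold and Obp3 from 57.0-fold to 38.2-fold. In these 3 genes CO2-O2 control 3 was the lowest of its group and isoflurane control 3 the highest of its own, and no isoflurane array reached a CO2-O2 array. Mup4 was not well above background on any isoflurane array, so that it was at least 4.86-fold higher in the CO2-O2 controls. Mup4l3, with the same limit, was at least 9.35-fold higher, and its other probe gave -4.35. That of Mup4l1 gave -4.61.

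Other secreted liver proteins moved with them. Alpha-1-inhibitor 3 (Mug1), a protease inhibitor of rodent plasma, was at -1.50, -0.35 and -3.26 in the CO2-O2 controls and at -7.88, -7.90 and -5.18 in the isoflurane controls (difference -5.28 ± 1.36, adjusted p = 0.0346 in limma; other measured probe -5.01). It was well above background on 1 of 3 isoflurane arrays, and raising the dim arrays took it from 38.9-fold to 14.6-fold. Apolipoprotein C1 (Apoc1) was at -1.54, -0.35 and -2.44 against -4.94, -5.68 and -4.20 (-3.49 ± 0.62, adjusted p = 0.00765), and haptoglobin (Hp) at -1.24, 0.07 and -2.31 against -3.49, -3.18 and -2.75 (-1.98 ± 0.52, adjusted p = 0.0373; other probe -1.52). Both were lower on every isoflurane array than on any CO2-O2 array. Albumin (Alb) was at 0.79, 1.66 and -1.44 against -6.28, -5.72 and -2.97; its groups did not overlap either, but its difference of -5.33 ± 1.63 had an adjusted p of 0.0639 and did not pass the threshold. It too was well above background on 1 of 3 isoflurane arrays, and its other probes gave -3.56 and -3.88.

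Over the whole hepatocyte marker list, 6 of 37 tested members were lower, 1 was higher and 30 did not pass, which is 18.9% called against 8.70% of all named genes. The median difference was -0.80, against 0.01 over all named genes. The isoflurane arrays lay entirely below the CO2-O2 arrays in 17 members and entirely above in 4. The mean level of the list was -1.57, -1.06 and -2.44 in the CO2-O2 controls and -3.22, -2.95 and -2.68 in the isoflurane controls. Of the 37, 34, 37 and 32 were well above background on CO2-O2 arrays 1 to 3, and 21, 25 and 31 on isoflurane arrays 1 to 3. Some members therefore passed the filter only through a group where they are high, and requiring signal on all 12 arrays left 1 lower gene. Mup4, Obp3 and Mup4l1, near copies of each other, are among the 6 lower members, so these are not independent. Some members gave no such fall: Ambp differed by 0.01 and did not pass, and antithrombin (Serpinc1) was between 6.31 and 6.38 against 6.50 to 6.56, with a difference of 0.18 (adjusted p = 0.429). Plasminogen (Plg) was higher, at 0.16, 0.23 and 0.25 against 0.84, 0.97 and 1.00 (0.72 ± 0.11, adjusted p = 0.0044). In a bulk tissue, fewer cells of a type and less RNA per cell cannot be told apart, and the part of liver RNA in these levels was not tested.

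The liver-type calls leaned on few arrays. Without CO2-O2 control 1 or 2, or without isoflurane control 1 or 2, the calls of Ttr, Obp3 and Mug1 were lost, and adjusted p for Ttr ranged from 0.032 to 0.114 over the 6 fits. The call of Hp was kept only without CO2-O2 control 3, with adjusted p from 0.0146 to 0.109. Mup4, Mup5, Mup4l1, Mup4l3, Mup4l4 and Apoc1 passed in all 6.

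**Figure D2:**
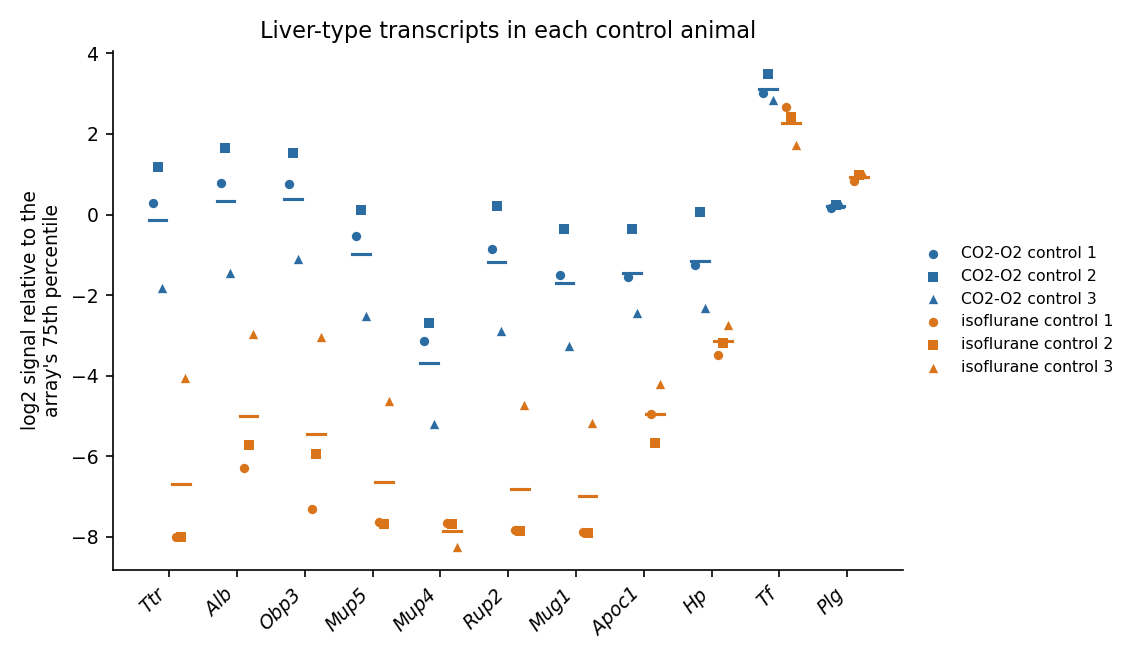
Log2 level of 11 liver-type genes in each control animal, with CO2-O2 controls in blue, isoflurane controls in orange, symbols for animals 1 to 3 and bars for group means. From Ttr to Hp all isoflurane points lie below all CO2-O2 points, while Plg lies the other way.

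Of the genes called, 32 higher and 39 lower genes had all other measured probes on the same side and at least 1 of these past the threshold on its own; the examples here were picked from them after their values were seen. Trim26, a ubiquitin ligase of antiviral signalling, was at 2.25, 2.20 and 2.27 in the CO2-O2 controls and at 3.08, 3.20 and 3.34 in the isoflurane controls. The difference was 0.96 ± 0.09 (SE, n = 3 per group; adjusted p = 8.13e-04 in limma), and 1 of its other measured probes gave 0.84. The groups did not overlap.

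Akr1b10, an aldose reductase relative that reduces aldehydes, was at -0.09, 0.32 and 0.31 against 1.72, 1.62 and 1.59, a difference of 1.46 ± 0.32 (adjusted p = 0.0185) with 1.11 from the other probe. The call passed the threshold only in the fit without CO2-O2 control 3 among those that left out 1 animal. Carbonic anhydrase 12 (Car12), a membrane enzyme that interconverts CO2 and bicarbonate, was at -0.24, -0.18 and 0.00 against 0.77, 0.73 and 0.77, a difference of 0.90 ± 0.12 (adjusted p = 0.00272) with 1.05 from the other probe. All isoflurane arrays were above all CO2-O2 arrays for both genes.

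Among the lower genes with several probes in accord were Gtpbp4, a GTPase of ribosome assembly, and Smoc2, a matrix protein. Gtpbp4 was at 2.61, 2.91 and 3.11 in the CO2-O2 controls and at 1.70, 0.81 and 1.31 in the isoflurane controls, a difference of -1.61 ± 0.34 (adjusted p = 0.0154) with -1.51 from another probe. Smoc2 was at 1.69, 1.45 and 1.38 against 0.33, 0.38 and 0.60, a difference of -1.07 ± 0.24 (adjusted p = 0.0199) with -1.07 from another probe. Neither gene had overlapping groups.

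Several of the largest rises rested on 1 probe. Ahi1, a gene of the primary cilium, was at -0.75, -0.70 and -0.54 against 0.79, 0.94 and 1.06, a difference of 1.59 ± 0.09 (adjusted p = 3.25e-04), while its other probe gave 0.33. Dusp8, a phosphatase of stress-activated kinases, was at 2.19, 1.92 and 2.15 against 3.50, 3.57 and 3.59, a difference of 1.47 ± 0.10 (adjusted p = 5.24e-04), while its other probe gave 0.02. In both genes the groups did not overlap on the chosen probe, and the probes disagreed.

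The highest difference of any named gene past the threshold was that of Adtrp, a regulator of tissue factor pathway inhibitor. Its level was -1.96, -1.84 and 3.30 in the CO2-O2 controls and 4.14, 3.98 and 3.80 in the isoflurane controls. CO2-O2 control 3 was therefore close to the isoflurane animals, and the difference of 4.14 ± 1.13 (adjusted p = 0.0434) rested on CO2-O2 controls 1 and 2. Leaving out any animal other than CO2-O2 control 3 ended the call, with adjusted p up to 0.148. Its other probes gave -0.36 and -0.11.

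Of 35 immediate early genes, 2 were higher and 1 was lower, a share of 8.57% against 8.70% of all named genes, and the median difference was -0.08. Fos, the transcription factor that is switched on within minutes of many stimuli, was at -4.21, -4.07 and -4.52 in the CO2-O2 controls and at -2.50, -2.52 and -3.46 in the isoflurane controls. All isoflurane animals were above all CO2-O2 animals, with a difference of 1.44 ± 0.24 (SE, n = 3 per group; adjusted p = 0.00649 in limma) and 0.75 from its other probe. The call held in all 6 fits that left out 1 animal.

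Egr1, Jun and Nr4a1, which are often induced along with Fos, did not pass. Egr1 was at -3.70, -2.23 and -3.57 against -2.38, -2.55 and -3.01 (difference 0.52, adjusted p = 0.354), Jun had a difference of -0.20 (adjusted p = 0.588), and Nr4a1 was at 0.33, 1.22 and 0.90 against 1.2, 0.58 and 0.56 (difference -0.04, adjusted p = 0.937). These groups overlapped. Socs3, a brake on cytokine signalling, was higher by 0.54 (adjusted p = 0.0409) but its other probe gave -0.08, and the flow-responsive factor Klf2 was lower by 0.49 (difference -0.49, adjusted p = 0.0304).

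Of 20 heat shock proteins and co-chaperones, 21 targets of the hypoxia-inducible factors and 22 glucocorticoid-induced genes and metallothioneins, none passed the threshold in limma, and 4, 3 and 1 had an unadjusted p under 0.05. Hspa1a, the inducible HSP70, was at -2.0, -1.18 and -1.99 against -2.06, -1.66 and -2.04, with overlapping groups. The small heat shock protein Cryab was at 4.59, 5.30 and 4.23 against 3.49, 4.08 and 3.58, each isoflurane array below every CO2-O2 array, with a difference of -0.99 and an adjusted p of 0.092. Vegfa, a hypoxia target, differed by -0.17 (adjusted p = 0.262) on the probe chosen, while its 5 other probes gave between -0.40 and 0.36. The glucocorticoid target Fkbp5 was at 2.42, 3.19 and 3.43 against 1.86, 3.52 and 3.99, so that the animals of a group differed more than the groups.

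Of 4 cold-inducible genes, 1 was lower and none higher (25%, against 8.70% of all named genes). Cirbp, an RNA-binding protein that rises with mild cold, was at -0.35, -0.37 and -0.34 in the CO2-O2 controls and at -0.86, -0.83 and -1.04 in the isoflurane controls (difference -0.56 ± 0.13, adjusted p = 0.0248), but the call was lost in each of the 6 fits without 1 animal, with adjusted p from 0.0562 to 0.0845. Rbm3, the other main cold-inducible gene, differed by -0.36 and did not pass (adjusted p = 0.0799). Among 27 carbonic anhydrases and acid-base transporters, 2 were higher and none lower (7.41%), with Car12, described above, the larger. The proximal tubule exchanger Slc9a3 was at 0.90, 0.92 and 0.77 against 0.06, 0.08 and 0.25, a difference of -0.73 that did not pass (adjusted p = 0.0653).

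Of 17 circadian clock genes, 1 passed, a share of 5.88% against 8.70% of all named genes. Per3 had a difference of 0.62 ± 0.11 (adjusted p = 0.00896), with 0.38, 0.53, 0.08 and 0.00 from its other probes. The clock output factor Dbp was at 6.16, 4.93 and 5.37 against 5.53, 6.34 and 5.98, and the core activator Bmal1 at -1.32, 0.58 and -0.05 against -0.27, -1.38 and -0.72. Both spread widely within each group and their groups overlapped. In each group the animal with the highest Dbp had the lowest Bmal1.

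**Figure D3:**
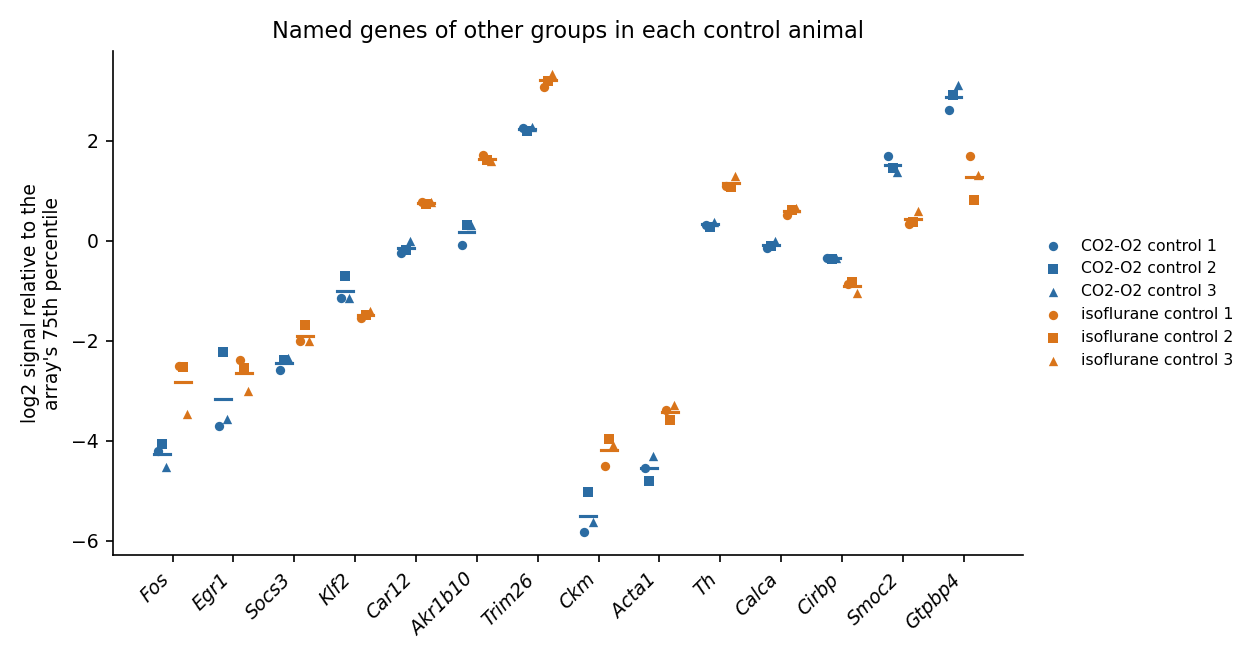
Log2 level of 14 genes in each control animal, with CO2-O2 controls in blue, isoflurane controls in orange, symbols for animals 1 to 3 and bars for group means. Fos, Car12, Akr1b10, Trim26, Ckm, Acta1, Th and Calca separate upwards and Cirbp, Smoc2 and Gtpbp4 downwards, while the groups of Egr1 overlap.

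Several genes of energy metabolism passed, all by less than 2-fold. Of 19 glycolytic enzymes, 4 were higher and 1 was lower, a share of 26.3% against 8.70% of all named genes. Gapdh and Tpi1 were each higher by 0.31 (adjusted p = 0.0192 and 0.0337), with other probes between -0.11 and 0.30, and both calls were lost under quantile normalization and under centring on the median. Hk1, the hexokinase of most tissues, was higher by 0.30 (adjusted p = 0.0344). Pyruvate kinase Pklr was at 2.65, 2.76 and 2.69 against 2.10, 1.93 and 2.15 (difference -0.64, adjusted p = 0.0211; other probe -0.31).

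Of 73 mitochondrial respiratory chain genes, 7 were higher and 1 was lower, a share of 11% against 8.70% of all named genes. The cytochrome c oxidase subunit Cox7c was at 2.96, 2.85 and 3.04 against 3.53, 3.71 and 3.51 (0.63 ± 0.08, adjusted p = 0.00221). Cox6b2 had a difference of 0.88 on the chosen probe and -0.17 on the other. The complex I subunit Ndufa7 went the other way, at 0.74, 0.71 and 0.68 against 0.03, 0.12 and 0.18 (-0.60 ± 0.09, adjusted p = 0.00424), and had no overlap between the groups.

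Of 13 genes of gluconeogenesis and ammonia production, 2 were higher and none lower (15.4%, against 8.70% of all named genes). Among them was the coactivator Ppargc1a (0.37, adjusted p = 0.032). No gene of the 32 targets of PPAR alpha and fatty acid oxidation passed in limma, and 4 had an unadjusted p under 0.05. Of 24 genes of cholesterol synthesis and uptake, 3 were lower and none higher (12.5%). These were the demethylase Cyp51 (-0.46, adjusted p = 0.0207, other probe -0.27), the methylsterol oxidase Msmo1 (-0.29, adjusted p = 0.0267) and the sterol sensor partner Insig1 (-0.38, adjusted p = 0.0319). Insig1 was at 2.68, 2.49 and 2.44 against 2.24, 2.17 and 2.07, and its 3 other probes gave -0.20 to -0.40. Of the 6 fits that left out 1 animal, the call of Msmo1 was kept in 0 and those of Cyp51 and Insig1 in 1 each. With the mean of all probes the call of Insig1 was lost (adjusted p = 0.0749 in limma).

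Few markers of kidney cell types passed. Of 36 proximal tubule markers 1 was higher and none was lower (2.78%, against 8.70% of all named genes). Their median difference was 0.06, and the mean level of the list was between 4.79 and 4.85 on all 6 arrays. The exception was Slc34a1 with 0.53 ± 0.09 (adjusted p = 0.00753), whose other probe gave -0.03. None of 12 thick ascending limb markers and none of 19 collecting duct markers passed in limma (1 and 3 at an unadjusted p under 0.05), and Umod (difference -0.13, adjusted p = 0.34) and the vasopressin-regulated water channel Aqp2 (0.11, adjusted p = 0.722) overlapped. Slc12a3, the thiazide-sensitive carrier of the distal tubule, was higher by 0.81 (adjusted p = 0.0193) on 1 probe, and its others gave -0.20 and -0.13.

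Glomerular and vascular lists each held 1 higher gene: Synpo of podocytes (0.52, adjusted p = 0.0344), Notch3 of smooth muscle (0.49, adjusted p = 0.0126; other probe 0.07) and Flt1 of endothelium (0.67, adjusted p = 0.0028; other probes 0.24 and 0.09). The shares called were 6.25%, 7.14% and 7.69%, against 8.70% of all named genes. The call of Synpo was lost under quantile normalization and under centring on the median. It was kept in 1 of the 6 fits without 1 animal. Of 16 genes of inner medulla, papilla and urothelium, 3 were higher and none lower (18.8%). These were Krt15 by 0.93, Calca by 0.69 and the betaine carrier Slc6a12 by 0.35, whose other probe gave -0.35. The other probes of Calca gave 0.66, 0.29 and 0.09, and were well above background on 1, 5 and 2 of 6 control arrays. Its call was lost with the mean of all probes (adjusted p = 0.383). None of 23 kidney injury markers and none of 22 vasoactive genes passed in limma (0 and 3 at an unadjusted p under 0.05). Kim-1 (Havcr1) was at -4.47, -3.63 and -4.98 against -5.19, -5.01 and -4.71, with overlapping groups.

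Markers of tissues next to the kidney were also looked at. Of 6 measured adrenal genes, 2 were higher and none lower (33.3%, against 8.70% of all named genes). Tyrosine hydroxylase (Th), the entry enzyme of catecholamine synthesis, was at 0.32, 0.28 and 0.38 against 1.09, 1.07 and 1.29 (0.83 ± 0.14, adjusted p = 0.00699, other probe 1.18). The other was Pnmt, which makes adrenaline (0.44, adjusted p = 0.0395). With the mean of all probes the call of Th was lost (adjusted p = 0.0572). The call of Pnmt was lost under quantile normalization, under centring on the median and in 5 of the 6 fits without 1 animal. Of the 6 adrenal genes, 4 differed upwards and 2 downwards, with a median of 0.16 and a lowest value of -0.39. In 1 of them the isoflurane arrays lay entirely below the CO2-O2 arrays. Of 12 skeletal muscle genes, 2 were higher and 1 was lower (25%). Creatine kinase M (Ckm) was at -5.83, -5.02 and -5.63 against -4.50, -3.96 and -4.09 (1.31 ± 0.24, adjusted p = 0.00942), and skeletal actin (Acta1) at -4.54, -4.81 and -4.30 against -3.39, -3.58 and -3.28 (1.13 ± 0.18, adjusted p = 0.00523). Both muscle genes were dim in all 6 animals and did not overlap between groups. The myosin light chain Myl11 moved the other way (-0.54, adjusted p = 0.0405). Of the 12 muscle genes, 7 differed upwards and 5 downwards. The isoflurane arrays lay entirely above the CO2-O2 arrays in 2 of them and entirely below in 3. With the mean of all probes the call of Ckm was lost (adjusted p = 0.0983 in limma).

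Blood and immune genes gave few calls. None of 27 leukocyte markers, 11 red blood cell genes and 25 antigen presentation genes passed in limma, and 2, 1 and 3 had an unadjusted p under 0.05. The alpha globin Hba-a1 was at 8.30, 8.39 and 8.21 against 8.34, 8.06 and 7.91, with overlapping groups and a difference of -0.20 (adjusted p = 0.661). Of 42 interferon-induced genes, Oas2, an antiviral RNA sensor, was higher by 0.80 (adjusted p = 0.0174), and of 17 inflammatory genes Nfkb2 was higher by 0.29 (adjusted p = 0.0427; other probe 0.36), a call lost in all 6 fits without 1 animal. The interferon and inflammatory lists had 2.38% and 5.88% of members called, against 8.70% of all named genes.

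Genes of protein synthesis and turnover were called at shares below the 8.70% of all named genes when both directions are counted. Most of their calls were lower, and 4.12% of all named genes were lower. Of 78 cytosolic ribosomal protein genes, 2 were lower and none higher, Rpl23a (-0.41, adjusted p = 0.0163; other probes -0.04 and -0.26) and Rpl14 (-0.30, adjusted p = 0.0353; other probe -0.32), a share of 2.56%; in the BDCM groups 4 were higher and none lower. The call of Rpl23a was lost with the mean of all probes (adjusted p = 0.176). Of 66 mitochondrial ribosomal genes, 3 were lower and 1 was higher (6.06%). Of 37 proteasome subunits, 3 were lower and none higher (8.11%), a share above the 4.12%. Isoflurane arrays lay entirely below the CO2-O2 arrays in 15 of these 37 and in 26 of the 78 cytosolic ribosomal genes, and entirely above in 5 and 6. Over all named genes these shares were 19.0% and 19.3%. The assembly factor Psmd5 led the proteasome calls, at 0.72, 0.78 and 0.80 against 0.40, 0.40 and 0.28 (-0.41 ± 0.07, adjusted p = 0.00665). Of 28 cell cycle genes (3.57% called), Gins2 was lower (-0.95, adjusted p = 0.0275). It was well above background on 1 of 3 isoflurane arrays.

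**Figure D4:**
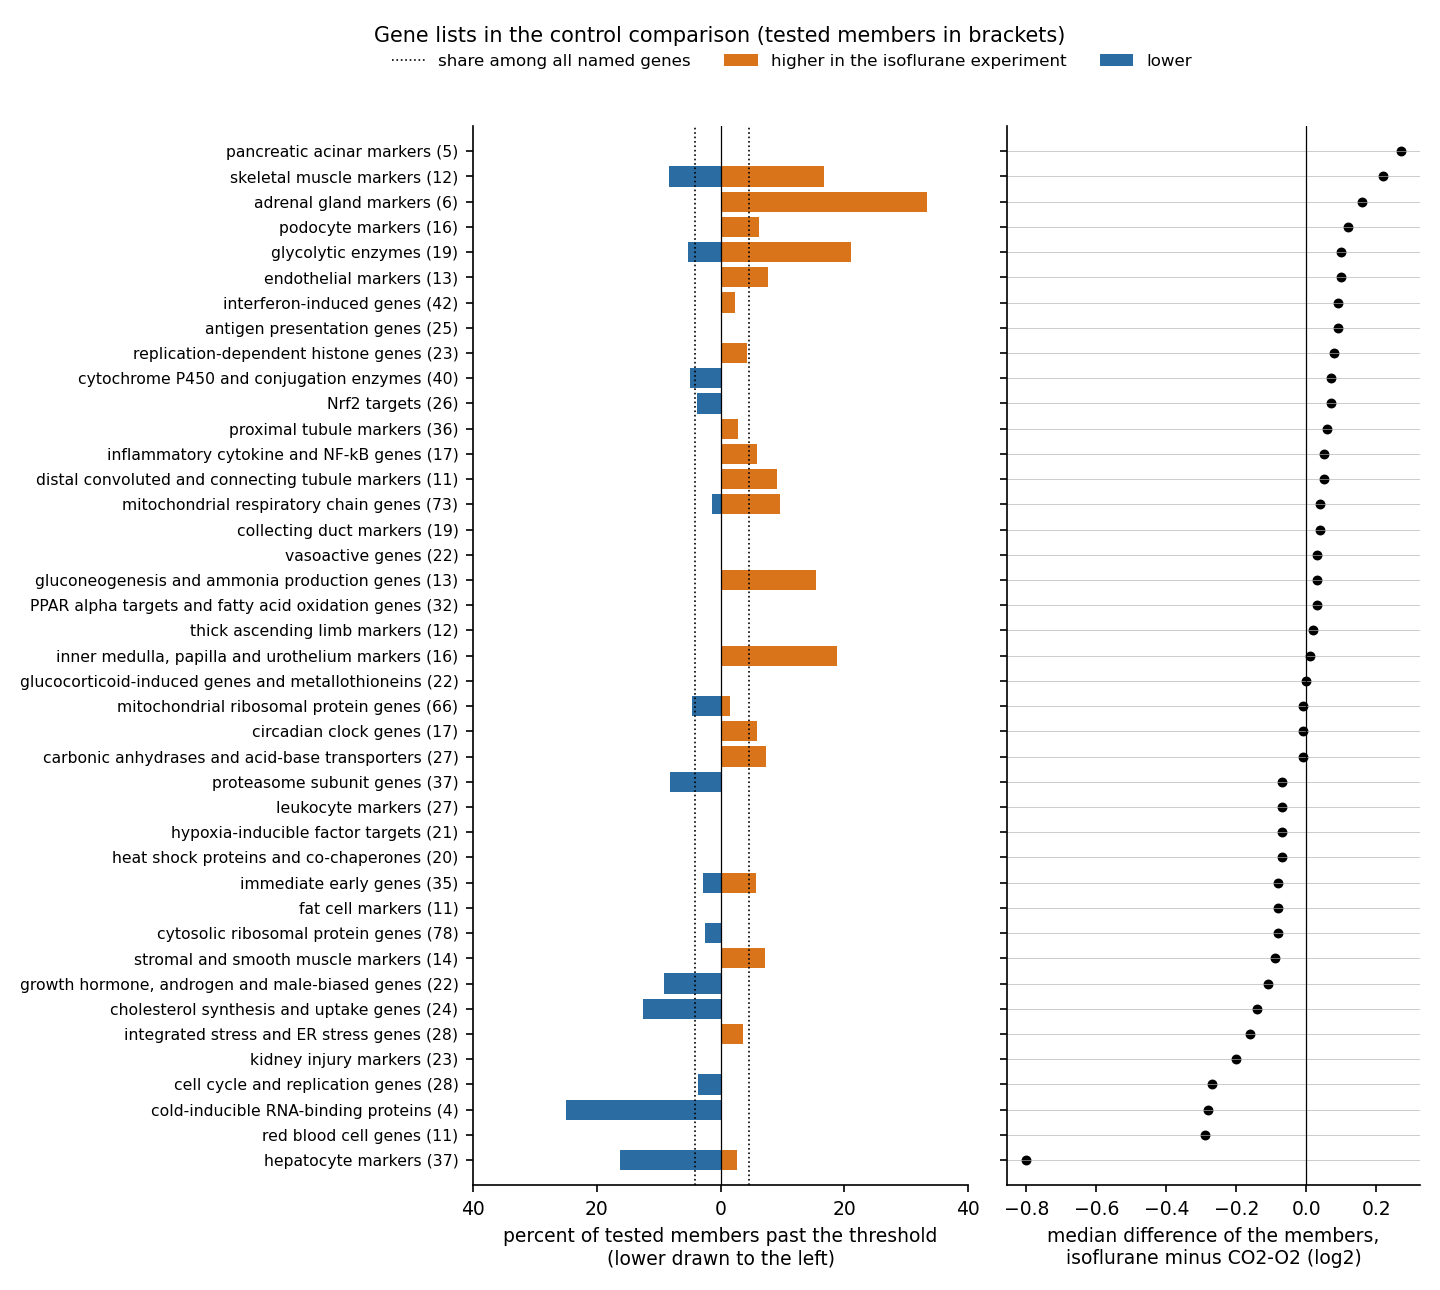
The left panel gives the percent of tested members of each list that were higher (orange, to the right) or lower (blue, to the left) in the isoflurane controls, with dotted lines at the shares among all named genes, 4.58% and 4.12%. The right panel gives the median difference of the members (log2); hepatocyte markers stand at -0.80 and the other lists between -0.29 and 0.27.

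Genes of sensory receptors were frequent among the rises, a family noticed after the values were seen. Of 256 measured olfactory receptor genes, 42 were higher and 4 lower, with a median difference of 0.29 and a median level of -4.64. The share of higher genes was 4.58% over all named genes and 6.43% among the 2442 dimmest. Only 192 of the 256 were well above background on all 6 control arrays, so some passed the filter only through the group where they are high. Or4x5 was at -6.68, -7.06 and -6.61 in the CO2-O2 controls, where no array was well above background, and at -5.09, -5.25 and -4.81 in the isoflurane controls, at least 2.56-fold higher (adjusted p = 0.00173 in limma). Other dim genes with a rise were Rbfox1, a splicing factor of neurons and muscle, at -7.17, -6.80 and -6.01 against -4.70, -4.39 and -3.85, and Mmp1, a collagenase, at -5.72, -5.08 and -5.52 against -4.17, -3.94 and -3.47. The other probes of Rbfox1 and Mmp1 were not above background on any control array.

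The same 2 experiments were set against each other in the BDCM groups, which share no array with the controls; 3 of the 6 BDCM arrays lay on a slide that also held controls. There, 1672 genes (13.7%) passed the threshold. Of the 1062 genes called in the controls, 716 were called in the BDCM groups as well, which is 67.4% of the control genes and 42.8% of the BDCM genes, and all 716 had the same sign. Of all 1062, 1045 had the same sign and 17 the opposite sign. Both comparisons came from 1 fit with a shared estimate of each gene's spread, so a small spread favours calls in both. The overlap is therefore not independent support, and the share of equal signs over all named genes is not given here. The test of the difference between the 2 experiment differences called none of 12208 genes (0%) in limma; 475 genes (3.89%) had an unadjusted p under 0.05, and the smallest adjusted p was 0.537.

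Side by side as measured, Trim26 differed by 0.96 in the controls and 0.91 in the BDCM groups, Car12 by 0.90 in both, Dusp8 by 1.47 and 1.36, Ttr by -6.57 and -5.74 and Alb by -5.33 and -5.94. Fos differed by 1.44 in the controls and by 0.59 in the BDCM groups (adjusted p = 0.123 in limma), and Akr1b10 by 1.46 and 0.03. The 6 urinary protein genes described above differed less in the BDCM groups. Mup4 differed by -4.18 and -0.28, Mup4l4 by -4.65 and -0.88 and Mup4l3 by -4.49 and -1.29. Mup5 differed by -5.67 and -2.46, Obp3 by -5.83 and -3.15 and Mup4l1 by -4.15 and -2.55. Of the 7 measured genes of this family, 2 passed as lower in the BDCM groups. Smoc2 differed by -1.07 and 0.02. Since the difference between differences did not pass for any gene, these unequal values are not shown to differ. The exception arose without CO2-O2 control 3, where Adtrp alone passed that test.

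**Figure D5:**
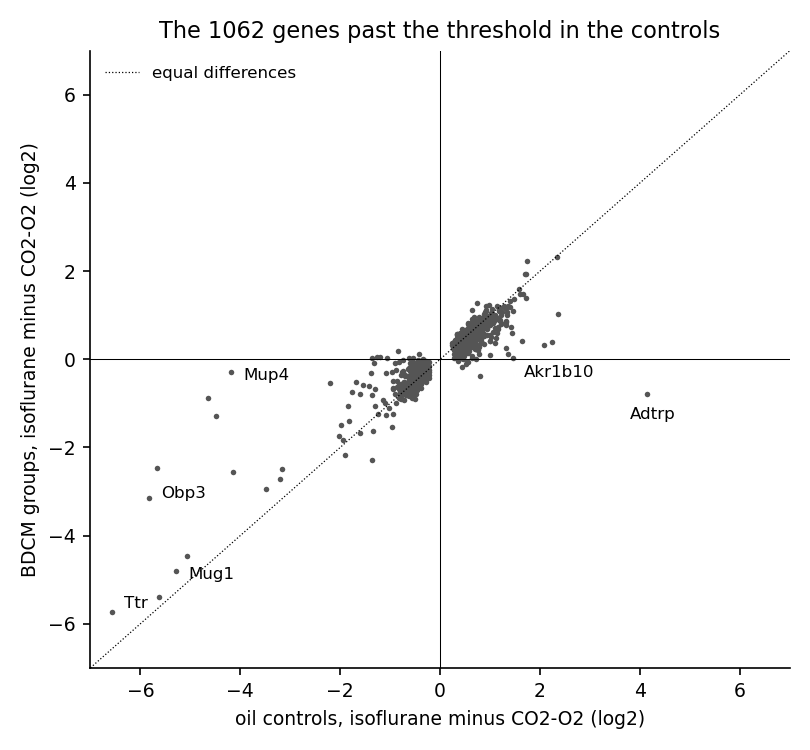
Each point is 1 of the 1062 genes called in the controls; the horizontal axis gives the isoflurane minus CO2-O2 difference of the oil controls and the vertical axis that of the BDCM groups (log2), and the dotted line marks equal differences. Most points lie near the line, with Adtrp and Akr1b10 among those away from it.

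The cyclic AMP response element TGACGTCA, the site of factors such as CREB, was present on either strand in 4.03% of 447 higher and 3.85% of 416 lower genes, against 2.89% of 9956 tested genes and 1.91% of all 27457 promoters (300 bases around the start, RefSeq, GRCr8). The E-box CACGTG, which the clock factors and others bind, was present in 6.71% of higher, 8.89% of lower and 8.86% of tested genes. The heat shock pair GAANNTTC was present in 4.25%, 4.33% and 5.72%, the interferon element GAAANNGAA in 6.49%, 6.97% and 7.55%, and the D-box (TTATGTAA or TTACGTAA) in 0.447%, 1.2% and 0.753%. Over all called genes, 18 higher and 16 lower genes held the cyclic AMP element, so it did not mark a direction. Those named by rule (Ahi1, Th, Flt1 and Ppargc1a) happened to be higher genes. Their windows are shown as examples with 10 bases on each side, 5′ to 3′ on the gene's strand and the element in capitals.

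Ahi1: gaggcgggccTGACGTCAcgggcggcgc

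Th: agaggggcttTGACGTCAgcctggcctt

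Flt1: ggggacccctTGACGTCActagaaggag

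Ppargc1a: tgcctcggagTGACGTCAggagtttgag

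These windows lie at chr1:17581969-17581996 (plus strand), chr1:207508270-207508297 (minus strand), chr12:12333296-12333323 (plus strand) and chr14:63634117-63634144 (plus strand). The element starts 52, 69, 124 and 181 bases before the annotated start of Ahi1, Th, Flt1 and Ppargc1a.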

How the data were processed

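RNA of renal cortex was labelled with Cy3 and hybridised to 1 Agilent array per animal. The authors deposited scanner files of intensity values; the submitters' processing notes name Agilent Feature Extraction 10.7, and the signal was background-subtracted and detrended within each array, per the file headers. The deposited value table holds a ratio, each signal divided by the 75th percentile of its array. Its 6 CO2-O2 columns equal the scanner file of another animal of the same group, so animals are numbered here by scanner file and the table was used as an alternative.

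Of 61573 probes (84 spike-ins left out), 27460 matched 1 of 15284 symbols through RefSeq accessions (GRCr8); the probe with the highest mean level stood for a gene, and 8807 symbols had several. Deposited intensities were put on the log2 scale relative to the 75th percentile. A feature was tested if its signal was well above background on every array of at least 1 group (34218 of 49397), and values marked as outliers were left out (54 missing). limma 3.58.1 in R 4.3.3 was fitted to all 12 arrays with 1 mean per group; p-values measure the spread between these animals. Sequences and scanner files were read with Python 3.11.15, pandas 2.3.3 and numpy 2.4.6, and figures drawn with matplotlib 3.10.9. The fit was tested on simulated data.

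Genes named by rule are the 15 highest and 15 lowest differences past adjusted p 0.05 with no overlap and all arrays of the higher group well above background, up to 4 called members of each of 41 gene lists by size, and 19 fixed genes, of which 18 were tested (93 genes in all); others are said to be chosen after their values were seen or are given as list members. The members and lists were chosen with earlier results of these data known. Alternatives covered scaling, background, filters, probe choice, models, thresholds, the value table and leaving out each animal; 2 more were chosen after seeing the data. Where a dim group had arrays below background, their values were raised to the lowest signal well above background on that array for the bounds given. With 3 arrays a group, precision is limited by their number. Some genes are not reported here.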

Additional observations from a re-analysis of the deposited data

How the results depend on the processing

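The 3795 features, 559 higher and 503 lower genes of the controls, the 1672 genes of the BDCM groups, the 59 called members of the 41 lists and the 6 lower hepatocyte genes were recomputed under 25 other settings (the BDCM genes not in the fit to the 6 control arrays alone). In that order, an adjusted p of 0.01 gave 1120, 177, 117, 419, 18 and 2, and a 2-fold minimum gave 450, 71, 43, 135 and 9 for all but the hepatocyte genes. The array's row on the slide as a term gave 2293 features, 229 lower genes, 915 BDCM genes, 31 list members and 2 hepatocyte genes. Array weights gave 6679 features, 1021 higher and 987 lower genes and 111 list members. Centring on the median gave 338 higher and 1102 lower genes. No filter on dim probes gave 280 lower genes, 992 BDCM genes and 38 list members, and the mean of all probes gave 335 lower genes and 36 list members. Taking every probe by itself, which tests more features, gave 938 higher genes and 89 list members. Requiring signal on all 12 arrays, which tests fewer features, left 1 hepatocyte gene. Leaving out 1 control animal gave 1592 to 2436 features, 241 to 383 higher and 173 to 280 lower genes, 21 to 47 list members, 2 to 11 hepatocyte genes, 1338 to 1445 BDCM genes and 0 to 1 genes for the difference of differences. With each array's mean hepatocyte level as a covariate, chosen after seeing the data, the values were 89, 12, 4, 8, 1 and 0. All 1062 genes kept their sign, and their median absolute difference was 0.52 without and 0.5 with the covariate. The median SE rose from 0.14 to 0.21. The hepatocyte level did not overlap between the 2 control groups, so this fit cannot fully separate it from the experiment. Slc6a12 went from 0.35 to 0.00 with the mean of all probes. Except where a construction is named, the cause was not tested. Same-numbered animals did not deviate together (correlations -0.0023, -0.0051 and 0.084), and a replicate block gave 3255 features, 483 higher and 405 lower genes. Of the 77 named genes past the threshold, 2 (Ahi1 and Dusp8) passed under all 25 settings.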

Other observations

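Some genes had 1 or 2 control animals far from the others of their own group, and were found after the values were seen by a gap over 2.5 on the log2 scale. The neuropeptide galanin (Gal) was at 4.33, 4.13 and -5.04 in CO2-O2 controls 1 to 3 and at 4.41, 4.61 and 4.06 in isoflurane controls 1 to 3. It was low in CO2-O2 control 3 alone.

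The epoxide hydrolase Ephx2 was at 2.41, -1.88 and 1.68 against 1.19, -2.0 and -1.84, so that low animals occurred in both groups. The lens crystallins Cryga and Crygd moved together: Cryga was at 4.42, 0.21 and 3.88 against 0.40, -0.21 and 4.63, and Crygd at 1.91, -2.27 and 1.37 against -2.27, -2.80 and 2.05. Both were high in CO2-O2 controls 1 and 3 and in isoflurane control 3. The protease inhibitor Slpi was at -3.24, 2.10 and 1.78 against 0.90, -5.32 and 1.79.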
